A study of Mus musculus with 24 samples.

Results

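The accessibility of chromatin at 10 genes of mucosal defence was followed in sorted small intestinal epithelium of young and aged mice: the Reg lectin genes Reg1, Reg3a, Reg3b, Reg3g and Reg4, and Retnlb, Lypd8, Lcn2, Saa1 and Pigr. They were chosen by name, with earlier results of these data known. Each was represented by the peaks that the deposited annotation assigns to it within 50000 bp of its transcription start site (TSS). This gave 51 of the 150646 peaks counted in every library: 9 at Pigr, 9 at Lypd8, 7 at Reg4, 5 at Reg3b, 5 at Reg3g, 4 each at Reg1, Reg3a and Retnlb, 3 at Saa1 and 1 at Lcn2. ATAC-seq reports accessibility through Tn5, a transposase that places sequencing adapters where chromatin is open. Both ages were C57BL/6JRj mice with no genotype or treatment in the labels, and their epithelium had been digested off with EDTA and trypsin and sorted as EpCam-positive, CD45-negative cells. Each age has 3 libraries, numbered 1, 2 and 4, sequenced on 4 lanes each. The labels say only young and aged. The series' design text gives 2 to 3 and 20 to 22 months, in sentences about other assays. The labels do not say that each library is a separate mouse, so the tests measure the spread between these libraries, and the libraries mix the epithelial cell types in the proportions of the sort.

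The Reg genes encode small C-type lectins secreted by the intestinal epithelium, several of which bind bacterial surface carbohydrate and kill or repel bacteria at the mucosa. Reg3b and Reg3g are induced by the microbiota and by interleukin 22, which acts through the transcription factor STAT3. Secreted defence also includes proteins that withhold iron from bacteria, that bind flagella, or that carry antibody across the epithelium, and these are represented here by Lcn2, Lypd8 and Pigr.

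Total counts in peaks ran from 6149680 in young 4, the shallowest library, to 23935291 in aged 2. Markers of the sorted cells were open: all 10 epithelial marker genes had a tested value over their peaks within 50000 bp, and their summed level was 2188 to 2335 normalised counts (CPM, scaled to the library total) in the aged libraries and 2094 to 2288 in the young ones. Of the leukocyte markers, several, Ptprc among them, had no tested value, and the 5 with one summed to 76.4 to 82.2 CPM in aged and 69.3 to 79.7 in young. Itgax made up most of this sum, at 60.1 to 69.5 CPM in aged and 56.7 to 67.1 in young. Goblet cell markers (7 of 7 tested) summed to 183 to 242 CPM in aged and 189 to 223 in young, Paneth cell markers (4 of 6 tested) to 104.9 to 110.5 and 102.0 to 108.8, enterocyte markers (8 of 8 tested) to 475 to 529 and 491 to 521, and fibroblast markers (4 of 5 tested) to 42.0 to 49.9 and 37.9 to 44.1. All of these ranges over 50000 bp overlapped between the ages. Log2 fold changes (aged over young) were above 0 at all 5 leukocyte, all 4 fibroblast and all 4 Paneth cell markers tested (medians 0.17, 0.10 and 0.06). They were above 0 at 5 of 10 epithelial, 4 of 7 goblet cell and 2 of 8 enterocyte markers. None had an adjusted p below 0.05 (edgeR), where 1.84% of all genes did. At promoters (peaks within 1000 bp of the TSS) the 9 tested epithelial markers summed to 1082 to 1098 CPM in aged and 1103 to 1165 in young, without overlap. Their log2 fold changes there were above 0 at 2 and below at 7, and 0 were called. The promoter sums of the other tested marker groups overlapped, and 1 of 3 Paneth cell markers lay above 0. The part of these markers in the results below was not tested. Fewer cells of a type and less open chromatin per cell cannot be told apart in such bulk libraries.

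The sequences just before the starts of 4 of the genes are shown because the peaks at these starts carry the results that follow. They are 250 bases 5′ of the RefSeq start on the gene's strand (RefSeq, GRCm38.p6, the build of the peaks), and capitals mark the letters of a searched motif. Reg1 is chr6:78425733-78425982 on the plus strand, Reg3b chr6:78370635-78370884 on the plus strand, Reg3g chr6:78468875-78469124 on the minus strand and Pigr chr1:130826434-130826683 on the plus strand.
Reg1: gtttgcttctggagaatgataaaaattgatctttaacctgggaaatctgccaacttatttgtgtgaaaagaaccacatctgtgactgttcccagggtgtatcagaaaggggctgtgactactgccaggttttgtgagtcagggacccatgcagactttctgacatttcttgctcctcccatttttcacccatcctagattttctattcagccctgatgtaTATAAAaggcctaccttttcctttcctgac
Reg3b: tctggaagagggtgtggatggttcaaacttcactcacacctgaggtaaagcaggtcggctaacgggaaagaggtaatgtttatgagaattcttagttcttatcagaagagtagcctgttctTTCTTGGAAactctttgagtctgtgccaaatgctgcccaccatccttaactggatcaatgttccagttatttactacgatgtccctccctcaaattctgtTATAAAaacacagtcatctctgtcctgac
Reg3g: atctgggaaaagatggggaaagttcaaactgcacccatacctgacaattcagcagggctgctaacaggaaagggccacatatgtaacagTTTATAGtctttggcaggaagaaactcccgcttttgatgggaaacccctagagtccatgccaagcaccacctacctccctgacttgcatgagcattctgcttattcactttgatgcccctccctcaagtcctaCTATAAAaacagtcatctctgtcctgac
Pigr: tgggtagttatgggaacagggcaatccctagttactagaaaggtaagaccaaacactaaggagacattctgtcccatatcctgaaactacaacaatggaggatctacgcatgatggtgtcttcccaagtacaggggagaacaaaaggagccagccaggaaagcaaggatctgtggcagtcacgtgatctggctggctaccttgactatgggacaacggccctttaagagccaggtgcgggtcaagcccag

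The core promoter letters TATAAA begin 30 bases before the start of Reg1, 29 before that of Reg3b and 27 before that of Reg3g. On either strand these letters are found in 13.6% of the 32851 RefSeq windows of 300 bases, and in 3 of the 10 windows of these genes (Lypd8 has a window at each of its starts, and Retnlb has none). The STAT letters TTCNNNGAA are found in 8.30% of all windows and at Reg3b, 129 to 121 bases before the start, and at Pigr, 39 bases after it. The CDX letters TTTATNG are found in 10.9% of windows, and at Lcn2, Reg1 and Reg3g; the Reg1 and Reg3g matches overlap TATAAA on one strand or the other. The letters AGATAA, bound by GATA factors, are found in 11.2% of windows and at Reg4 and the downstream start of Lypd8, while the NF-kB letters GGGANTTCC (1.68%) and the HNF4 letters CAAAGTCCA (0.475%) are in none of the 10. The printed bases of Reg3b and Reg3g were 68.9% identical, the highest of all pairs of genes, whose other values ran from 40.6% to 53.5%. A peak overlapped 9 of the 10 windows, against 47.7% of all RefSeq windows.

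No peak, gene or promoter of the 10 genes differed between the ages past the threshold. Of the 51 peaks, 47 were tested and 0 were called, where 1.60% of all 129588 tested peaks were called (edgeR, quasi-likelihood, Benjamini-Hochberg adjusted p below 0.05 over all tested peaks). The 4 untested peaks had too few counts and lay 3788 bp from the TSS of Reg1, 4989 bp from that of Reg3a, 6028 bp from that of Reg3g and 2295 bp upstream of that of Saa1. Log2 fold changes (aged over young) were above 0 at 16 peaks and below 0 at 31, with a median of -0.07, against a median of -0.0038 and 49.3% above 0 over all tested peaks. A peak had an unadjusted p below 0.05 in 1 case of 47, against 8.82% of all tested peaks, and DESeq2 and limma-voom also called 0. With the replicate number as a block it was 3 of 47, and 0 were called, with 2578 peaks called higher and 1420 lower in all. All aged libraries lay above all young ones at 1 of the 47 peaks, against 7.32% of all tested peaks, and below them at 4 (8.51%), against 6.54%. The plot of peak changes against peak level shows these peaks on the range of all peaks.

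**Figure D1:**
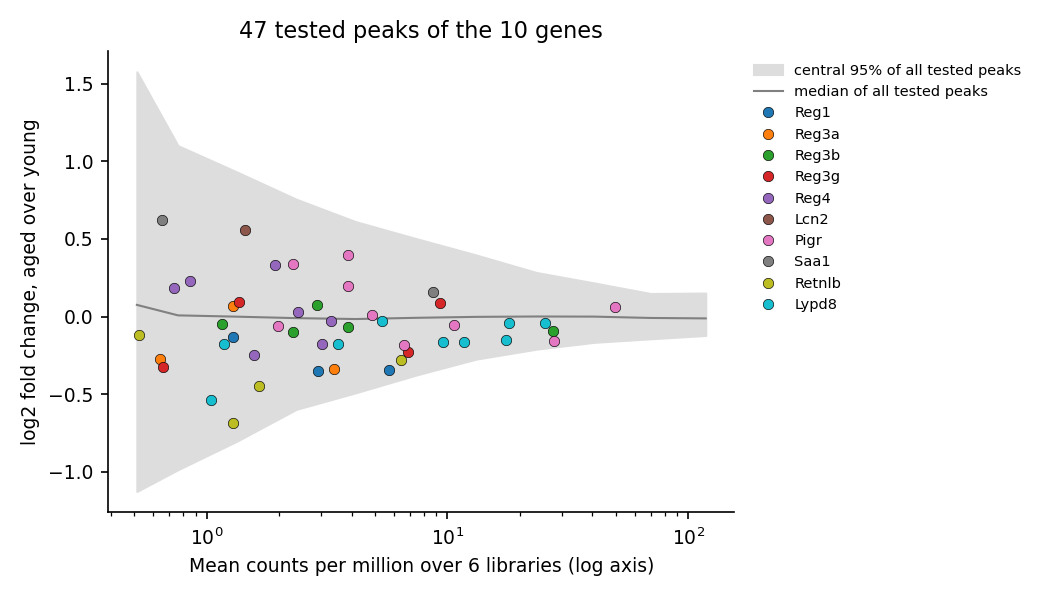
Log2 fold change (aged over young) against mean CPM (log axis) for the 47 tested peaks, coloured by gene, over the central 95% (grey) and the median (line) of all tested peaks of like CPM. No point leaves the grey band, and 31 of the 47 points lie below 0.

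Summed over the peaks within 50000 bp, the 10 genes were all tested and 0 were called, where 1.84% of 27199 genes were (edgeR quasi-likelihood, Benjamini-Hochberg). Here 3 genes had log2 fold changes above 0 and 7 below, with a median of -0.07. The aged libraries lay above the young ones at 0 genes, against 7.11% of all genes, and below them at 1, Reg1, against 6.55%. None of the 10 had an unadjusted p below 0.05 in this fit by age alone, and DESeq2 and limma-voom also called 0. With the replicate number as a block, 2 of the 10 did, and 0 were called. These were Retnlb (unadjusted p = 0.00792) and Reg1 (unadjusted p = 0.0311, both edgeR quasi-likelihood). That block called 752 genes higher and 513 lower in all. CPM are scaled to the total of each table, so peak, gene and promoter values are not on one scale.

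**Figure D2:**
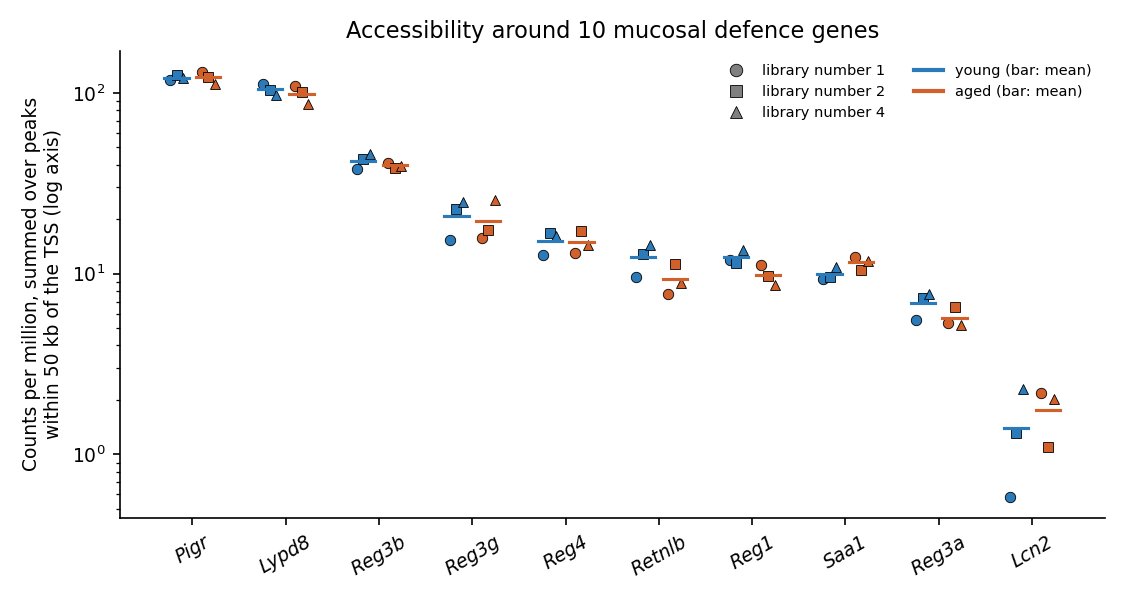
CPM summed over the peaks within 50 kb of the TSS (log axis) for each gene and library, with bars at the mean of the 3 libraries of an age. The sums are not scaled to the number or length of the peaks, and the libraries of the ages overlap for every gene except Reg1.

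Reg1, which encodes a lectin first known from the pancreas, had 11.2, 9.65 and 8.61 CPM in aged 1, 2 and 4 and 11.9, 11.4 and 13.5 CPM in young 1, 2 and 4 over its peaks. Every aged library lay below every young one. The log2 fold change was -0.31 (SE 0.15, 95% interval of the fold 0.648 to 1.005), with p = 0.585 after Benjamini-Hochberg adjustment (edgeR quasi-likelihood). With the replicate number as a block it was -0.29 (adjusted p = 0.254, edgeR quasi-likelihood, Benjamini-Hochberg), and Reg1 was not called. The peak at the start (chr6:78425412-78425992) held 5.61, 5.10 and 4.26 CPM in aged and 5.95, 6.04 and 7.48 in young, again without overlap. Its log2 fold change was -0.34 (SE 0.18) with p = 0.618 after the same edgeR adjustment. The 3 tested Reg1 peaks all had log2 fold changes below 0, the other 2 being -0.35 at 1966 bp upstream and -0.13 at 4249 bp downstream.

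Reg3a is a lectin gene beside Reg3b. Its start peak (chr6:78380577-78380827) held 1.29, 1.0 and 1.48 CPM in aged and 0.824, 1.24 and 1.91 in young, and the libraries overlapped. The strongest Reg3a peak, 4331 bp downstream, held 2.77, 3.80 and 2.27 against 3.20, 4.26 and 3.98 CPM, a log2 fold change of -0.33 (SE 0.22; Benjamini-Hochberg adjusted p = 0.784, edgeR quasi-likelihood). The whole gene had a log2 fold change of -0.23, with a 95% interval of the fold from 0.648 to 1.12. Without young 1 it was -0.38, without aged 2 -0.34 and without young 2 -0.15.

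Reg3b and Reg3g encode the lectins best known for killing bacteria, and their start peaks were highest in 1 aged library. The Reg3g start peak (chr6:78468767-78469679) held 6.78, 8.11 and 13.9 CPM in aged 1, 2 and 4 and 7.55, 10.3 and 9.40 CPM in young 1, 2 and 4. The Reg3b start peak (chr6:78370557-78370922) held 2.65, 2.17 and 4.26 CPM in aged and 3.02, 2.97 and 2.23 in young. At both peaks aged 4 was the highest of all 6 libraries and the other aged libraries lay low or among the young ones. Over 50000 bp aged 4 had 39.4 CPM at Reg3b, below aged 1 (41.1), young 2 (43.2) and young 4 (45.7). At Reg3g it had 25.4 CPM there, against 24.8 in young 4. Among other secreted defence promoters aged 4 was also the highest at Nos2, Lbp and Pglyrp1, for example, and not at Slpi or Dmbt1. As promoters (peaks within 1000 bp of the TSS) their log2 fold changes were 0.11 each (SE 0.26 each), with 95% intervals of the fold of 0.730 to 1.60 for Reg3g and 0.738 to 1.57 for Reg3b. Without aged 4 they were -0.27 for Reg3g and -0.25 for Reg3b, so the sign at both promoters changed with that library. Neither was called without it, with adjusted p-values of 0.965 and 0.999 (edgeR quasi-likelihood, Benjamini-Hochberg). Without young 1 the Reg3g promoter had -0.09. Whether the copies of this family share reads was not tested, and how reads that match several places were treated is not given in the sources used here.

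**Figure D3:**
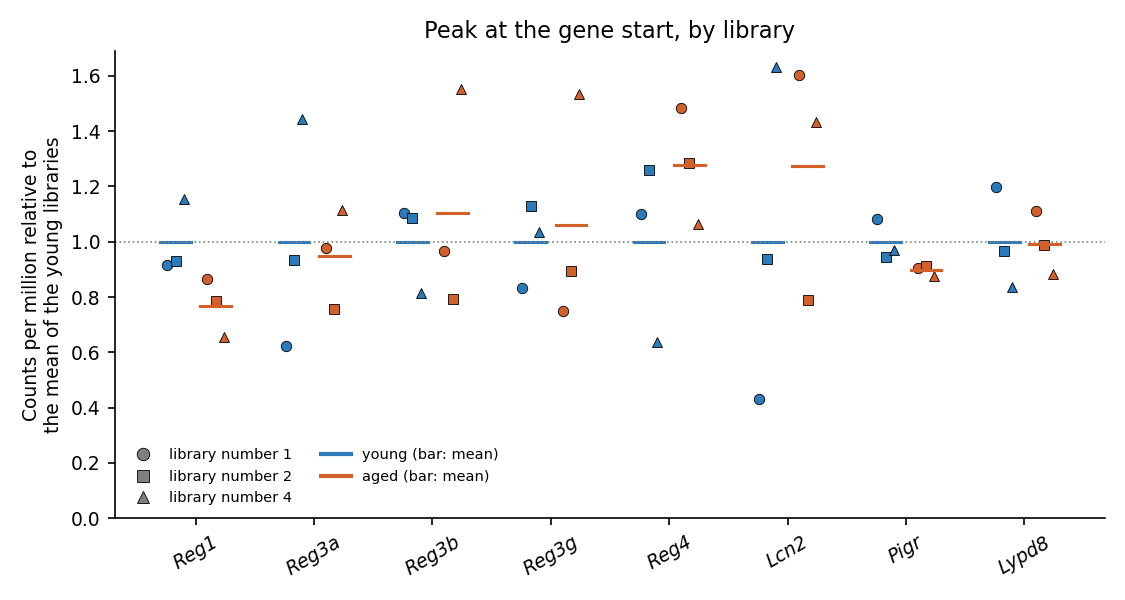
CPM of the peak at the RefSeq start of 8 genes in each library, divided by the mean of the 3 young libraries (dotted line at 1), with bars at the mean of each age. Aged 4 (orange triangle) is highest at Reg3b and Reg3g, and the aged libraries lie below the young ones at Reg1 and Pigr.

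The strongest peak of the Reg cluster on chromosome 6 was not at a start. It lay 8783 bp upstream of Reg3b (chr6:78361651-78362553, intergenic) and held 29.4, 25.3 and 24.6 CPM in aged and 27.2, 28.2 and 29.5 in young. The libraries overlapped, and the log2 fold change was -0.09 (95% interval -0.33 to 0.15; Benjamini-Hochberg adjusted p = 0.944, edgeR quasi-likelihood). Per length it held 30.3 CPM per kb, above 86.3% of all peaks, against 7.88 CPM per kb at the Reg3b start, 10.2 at the Reg3g start, 9.88 at the Reg1 start and 5.14 at the Reg3a start. Over all 18 peaks of these 4 genes, 15 were tested, with 4 log2 fold changes above 0, 11 below and a median of -0.10. Summed over 50000 bp, the fold had a 95% interval of 0.828 to 1.09 for Reg3b and 0.750 to 1.22 for Reg3g. The Reg3b log2 fold change of -0.08 became -0.16 without young 1, -0.05 without young 2 and -0.03 without young 4. The Reg3b peaks other than these lay 11087 to 38484 bp upstream and had log2 fold changes of -0.10 to -0.05. The Reg3g peak with the smallest p lay 21125 bp downstream, with 6.10, 5.93 and 6.30 CPM in aged and 4.94, 7.73 and 10.0 in young. The ages overlapped there, and the log2 fold change was -0.23. At the untested Reg3g peak 6028 bp downstream every aged library lay below every young one, on 2 to 11 counts per library.

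**Figure D4:**
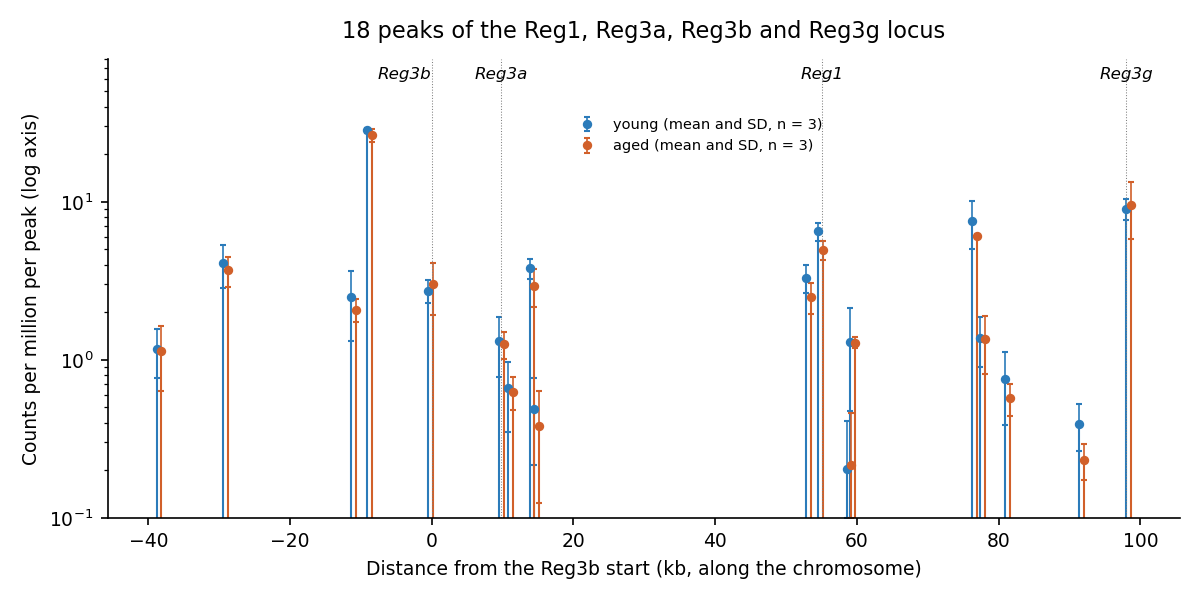
Mean CPM (log axis, SD of 3 libraries, lower bars stopped at the axis) of the 18 peaks of Reg1, Reg3a, Reg3b and Reg3g, by distance along the chromosome from the Reg3b start, in young (blue) and aged (orange) libraries, which are drawn slightly apart. The peak 8783 bp upstream of Reg3b is the highest in both ages, and the dotted lines mark the gene starts.

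Reg4, a lectin gene of secretory and enteroendocrine cells on chromosome 3, had 13.1, 17.2 and 14.3 CPM in aged and 12.6, 16.7 and 16.2 in young over 7 peaks. The libraries overlapped, and the 95% interval of the fold was 0.807 to 1.23. Its start peak (chr3:98221814-98222110) was weak, at 1.11, 0.961 and 0.795 CPM in aged and 0.824, 0.941 and 0.478 in young. Per length this peak was above 3.96% of all peaks, the lowest of the start peaks described here. An intronic peak 5278 bp downstream was the densest of the gene, at 16.2 CPM per kb. The strongest by CPM, 2225 bp downstream, held 3.27, 3.76 and 2.67 CPM in aged and 2.70, 3.96 and 3.34 in young, again overlapping. The 4 Reg4 log2 fold changes above 0 and 3 below ran from -0.25 to 0.33. The highest was at the Reg4 peak with the smallest p, 12174 bp upstream. It held 1.73, 2.51 and 2.10 CPM in aged and 1.56, 1.73 and 1.91 in young, overlapping.

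Retnlb, which encodes a goblet cell protein that acts on Gram-negative bacteria, had 7.72, 11.2 and 8.86 CPM in aged and 9.62, 12.9 and 14.4 in young over its 4 peaks. The libraries overlapped through aged 2 and young 1, while within each number the aged library lay below the young one. The log2 fold change was -0.36 (SE 0.18; 95% interval of the fold 0.606 to 1.003; Benjamini-Hochberg adjusted p = 0.570, edgeR quasi-likelihood). With the replicate number as a block the adjusted p was 0.114 (edgeR quasi-likelihood, Benjamini-Hochberg), and Retnlb was not called. All 4 of its peaks had log2 fold changes below 0. The peak 3584 bp upstream (chr16:48813131-48813413) had the smallest p of all 47 tested peaks: it held 0.863, 0.961 and 1.19 CPM in aged and 1.24, 2.18 and 1.27 in young, every aged library below every young one. Its log2 fold change of -0.68 had an unadjusted p of 0.0401 and an adjusted p of 0.522 by the same edgeR test. The strongest Retnlb peak, 9765 bp downstream (chr16:48826449-48826793), held 4.99, 6.85 and 5.05 against 5.31, 7.18 and 9.24 CPM, and the libraries overlapped. No peak lay within 1000 bp of the Retnlb TSS.

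Lypd8, which encodes a glycosylated protein that binds bacterial flagella, had 109, 101 and 87.1 CPM in aged and 112, 104 and 97.7 in young. The libraries overlapped, and the log2 fold change was -0.09 (95% interval of the fold 0.839 to 1.05). Without aged 4 it was -0.0097, without young 1 -0.04 and without aged 1 -0.16. All 9 Lypd8 peaks had log2 fold changes below 0, from -0.54 to -0.03, and 0 of them separated the ages. The lowest was at the Lypd8 peak with the smallest p, 12803 bp upstream. It held 1.23, 0.877 and 0.454 CPM in aged and 1.60, 0.842 and 1.27 in young. The start peak (chr11:58378718-58379205) held 20.1, 17.8 and 16.0 CPM in aged and 21.6, 17.5 and 15.1 in young. At 36.9 CPM per kb it was above 90.1% of all peaks. The strongest peak by CPM lay 1508 bp upstream, with 28.1, 26.8 and 21.2 CPM in aged and 28.5, 26.9 and 21.8 in young, and number 4 was the lowest of both ages.

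Lcn2, which encodes a protein that binds bacterial siderophores and so withholds iron, had a single weak peak, at its start (chr2:32387674-32388118). It held 2.03, 1.0 and 1.82 CPM in aged and 0.549, 1.19 and 2.07 in young. Young 1 was the lowest and young 4 the highest, so the ages overlapped across their whole range. The counts behind the values were 12 to 33 per library. The mean CPM over 50000 bp were 1.76 in aged and 1.39 in young, a ratio of 1.27. The log2 fold change of 0.56 from the edgeR fit was larger than this ratio, with a 95% interval of the fold from 0.828 to 2.62 over 50000 bp. Without young 1 that log2 fold change was 0.09 and without young 4 it was 0.88, and neither was called.

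Saa1, an acute-phase protein gene, had no peak at its start. The Saa1 peak nearest to the TSS, 2295 bp upstream, had too few counts to be tested (13, 16 and 8 in aged, 6, 8 and 1 in young). It held 0.801, 0.669 and 0.454 CPM in aged and 0.275, 0.396 and 0.159 in young, every aged library above every young one. The strongest Saa1 peak lay 4161 bp downstream (chr7:46738603-46739036), with 9.98, 8.23 and 9.37 CPM in aged and 8.10, 8.02 and 8.76 in young. The aged values reached higher but the ages overlapped, through aged 2 and young 4. The Saa1 peak with the smallest p, 4536 bp downstream, held 0.801, 0.669 and 0.738 CPM in aged and 0.458, 0.297 and 0.955 in young. The ages overlapped there too, and the log2 fold change of 0.62 was not called (adjusted p = 0.830, edgeR quasi-likelihood, Benjamini-Hochberg). Over its 3 peaks Saa1 had 12.4, 10.5 and 11.7 CPM in aged and 9.37, 9.58 and 10.9 in young, again overlapping, with a 95% interval of the fold from 0.945 to 1.45. RefSeq lists Saa2 among the synonyms of this gene, and the name is used as the deposited table gives it.

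Pigr, the receptor that carries polymeric immunoglobulin A through the epithelium into the lumen, had 131, 123 and 112 CPM in aged and 118, 125 and 121 in young over its 9 peaks. The ages overlapped, and the 95% interval of the fold was 0.910 to 1.10. The peak at its RefSeq start (chr1:130826475-130826959, 2293 bp from the TSS of the deposited table) held 26.6, 26.7 and 25.7 CPM in aged and 31.8, 27.7 and 28.5 in young, without overlap. At 57.4 CPM per kb it was above 96.2% of all peaks, and its log2 fold change was -0.16 (SE 0.11; Benjamini-Hochberg adjusted p = 0.821, edgeR quasi-likelihood). A peak in the first intron (chr1:130832124-130833074) had the highest mean CPM of all 51 peaks, at 58.0, 48.8 and 45.4 CPM in aged and 47, 50.4 and 48.4 in young. It did not separate the ages, and the 95% interval of its log2 fold change was -0.17 to 0.29. The one tested peak at which all aged libraries lay above all young ones was also in Pigr, 9472 bp downstream. It held 2.65, 2.76 and 2.33 against 2.20, 2.03 and 1.75 CPM, and its log2 fold change of 0.34 was not called. The Pigr peak with the smallest p lay 15728 bp downstream, with 3.82, 5.26 and 3.86 CPM in aged and 2.61, 3.71 and 3.98 in young. The ages overlapped there, and the log2 fold change was 0.39 (adjusted p = 0.653, edgeR quasi-likelihood, Benjamini-Hochberg). The peak nearest to the deposited TSS, 1074 bp downstream, had 0.01. Of the 9 Pigr peaks, 5 had log2 fold changes above 0 and 4 below.

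At promoters within 1000 bp, 7 of the 10 genes were tested, and Pigr, Saa1 and Retnlb had no peak there. Of these 7, 0 were called, where 1.74% of 13869 promoters were (edgeR quasi-likelihood, Benjamini-Hochberg), with 5 log2 fold changes above 0, 2 below, and 0 with an unadjusted p below 0.05. Reg3a is among the 5 by its fitted value of 0.09, though its mean promoter CPM was 3.74 in aged and 4.02 in young. With peaks that overlap the RefSeq windows instead, an alternative chosen after seeing the Pigr start, 8 genes were tested and 0 were called, where 1.42% of 13130 were. Pigr then had 63.2, 68.3 and 68.4 CPM in aged and 72.4, 71.4 and 78.3 in young, with a log2 fold change of -0.14 (95% interval of the fold 0.811 to 1.02).

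**Figure D5:**
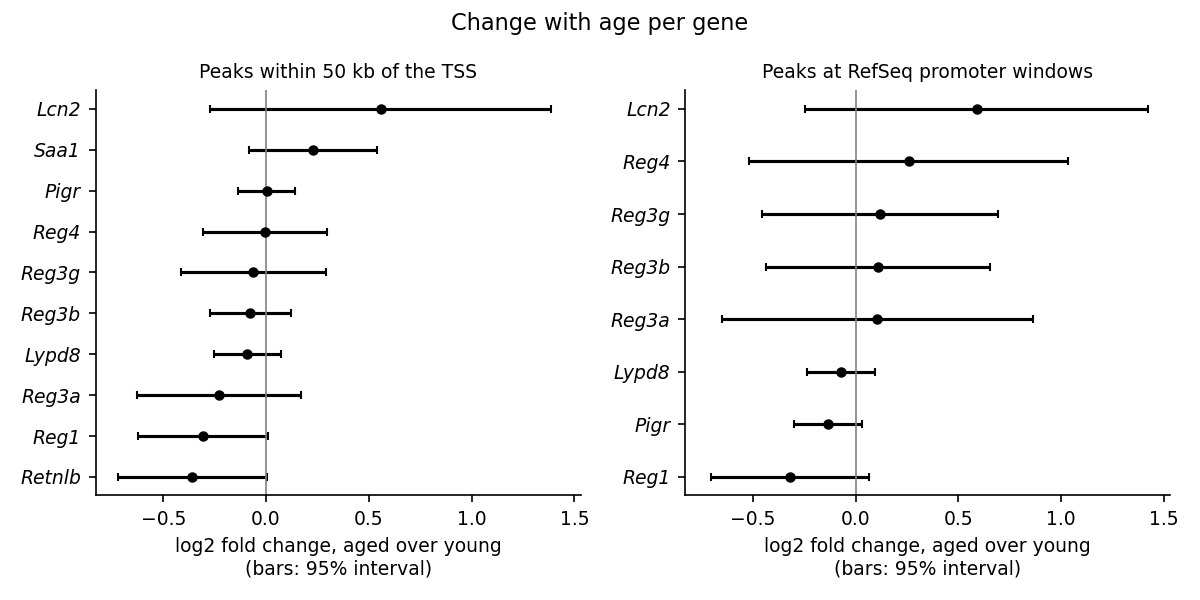
Log2 fold change (aged over young) with its 95% interval for the 10 genes over their peaks within 50 kb (left) and for the 8 genes with a peak at a RefSeq promoter window (right). Every interval includes 0; Retnlb and Reg1 lie lowest at left, and the widest interval is that of Lcn2.

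By annotation class, 30 of the 51 peaks were intergenic (58.8%, against 34.9% of all peaks), 10 were intronic (19.6% against 42.1%), 8 were promoter peaks (15.7% against 13.8%), 2 exonic and 1 at a transcript end.

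Other genes of the same systems were described from lists by count. Of the Reg family, Reg3d had 1.65, 1.51 and 2.45 CPM in aged and 2.19, 1.96 and 2.99 in young, overlapping, and Reg2 had no tested value. The list of 39 other secreted defence names matched 34 distinct genes, since 3 Sprr2a names lead to 1. Of these 30 were tested over 50000 bp, 23 above 0 and 7 below with a median log2 fold change of 0.09, and 0 were called. Of all genes 49.2% lay above 0, with a median of -0.0025, and 1.84% were called. At promoters 20 of them were tested, 11 above 0 and 9 below, and 0 were called. Of all promoters 49.4% lay above 0 and 1.74% were called. The smallest p-values of that list belonged to Duoxa2, a maturation factor of an oxidase, at its promoter (log2 fold change 0.34, SE 0.13, adjusted p = 0.340) and to Pla2g2a, a phospholipase gene, over 50000 bp (0.38, SE 0.16, adjusted p = 0.443), both from the edgeR fit with Benjamini-Hochberg adjustment. With peaks within 10000 bp alone, Pla2g2a had a log2 fold change of 0.69 and was called (adjusted p = 0.0475 by the same edgeR test). Whether C57BL/6JRj mice make a working protein from this gene was not measured. Of 30 upstream receptors and signalling genes, 27 were tested over 50000 bp, 19 above 0 and 8 below with a median of 0.02. Of these 0 were called, where 1.84% of all genes were. At promoters, 21 of the 30 were tested and 1 was called: Il6st, the shared receptor subunit of the interleukin 6 family, fell by 2.27 on the log2 scale (SE 0.48), to 0.698, 0.750 and 0.701 CPM in aged from 2.37, 3.73 and 6.08 in young, with no overlap (adjusted p = 0.00707 by the same edgeR test). These values rest on 4, 6 and 4 counts in aged and 19, 25 and 12 in young, so the promoter passed the filter on low counts through the young libraries. With no such filter its adjusted p was 0.00754, and without young 2 it was 0.0813. The promoter had no tested value with thinned libraries or within 500 bp. Over its peaks within 50000 bp Il6st had a log2 fold change of 0.10 (SE 0.08). Of the 21 promoters of this list, 12 had log2 fold changes above 0 and 9 below. An unadjusted p below 0.05 (edgeR) was found at 4. Besides Il6st these were Il17rc, Irak4 and Traf6, with log2 fold changes of 0.27, 0.18 and 1.04. Every aged library lay above every young one at Il17rc, Irak4 and Traf6, which were not called. The promoter CPM of the list summed to 1672 to 1743 in aged and 1560 to 1644 in young, without overlap.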

How the data were processed

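The authors deposited raw counts for each consensus peak, made with featureCounts 2.0.1, per the submitters' processing notes, and not normalised; the companion table gives each peak's position, nearest gene and distance to the TSS in bp. Per the same notes the reads were handled with Trim Galore 0.6.4, BWA 0.7.17-r1188, SAMtools 1.10, Picard 2.23.1 and MACS2 2.2.7.1 on GRCm38. No source used here states the peak caller's settings, any Tn5 shift, or whether reads or fragments were counted. Libraries had 17 PCR cycles, per the labels' protocols, which name no molecular identifiers, so counts need not be independent molecules.

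Counts were summed per gene over peaks within 50000 bp, 1000 bp or the RefSeq window, filtered (filterByExpr), scaled by TMM and tested with edgeR 4.0.16 (quasi-likelihood, age only, 3 libraries per age) in R 4.3.3, over all features. DESeq2 1.42.0, limma-voom 3.58.1, other scalings, filters, distances, thinning and leaving out each library were alternatives. CPM use TMM-scaled library sizes. Named peaks were the nearest, strongest and smallest-p peak of each gene, and some others. From the lists, called genes or the 2 smallest p were named, and some others. Members and lists were chosen with earlier results of these data known. Same-numbered libraries of the 2 ages deviated together (correlations 0.287, 0.209 and 0.167, all above the criterion of 0.1), which the labels do not explain. In the sample order of the titles, the young and aged libraries of one number are adjacent. The main tests leave this pairing out, and the replicate block was run as an alternative. On simulated counts, the test of genes over 50000 bp recovered 67% of 1.5-fold and 83% of 2-fold changes among 27199 genes, the test of promoters 58% and 81% among 13869, and the test of peaks 17% and 40% among 129588. False calls among unchanged features were 9, 10 and 6. The simulation changed 100 random features per fold size and drew libraries with no shared deviation by number. Its shares therefore need not hold for the genes and peaks described here. Every pair of libraries differed beyond sampling noise (chi-square per peak 1.64 to 3.81).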

Additional observations from a re-analysis of the deposited data

How the results depend on the processing

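No peak, gene or promoter of the 10 genes was called under any alternative run. The smallest adjusted p over genes within 50000 bp was 0.114, for Retnlb with the replicate block, which called 752 genes higher and 513 lower in all against 289 and 211 without it; among the 47 peaks its smallest was 0.228, with 2578 peaks called higher and 1420 lower in all. Of 359 alternative log2 fold changes, 327 kept their sign and side of the threshold. These cover the 10 genes and also Reg3d, Pla2g2a, Duoxa2 and Il6st. The alternative that only raised the threshold to 0.10 reused the main fit, so its values could not change sign. The 30 that changed sign all had a main value under 0.15 in size. Over 50000 bp, Pigr became -0.0094 with no scaling factor and -0.013 within 10000 bp, Reg3g 0.073 within 10000 bp, and Reg4 0.029 with limma-voom. At promoters the replicate block gave -0.0055 for Reg3a, -0.019 for Reg3b and -0.028 for Reg3g, thinning gave 0.10 for Lypd8, -0.35 for Reg3b and -0.0070 for Reg3g, and a distance of 2000 bp gave -0.034 for Reg3a. Thinning gave 0.0061 at the RefSeq window of Lypd8. Leaving out each library in turn changed the sign of some values, with ranges of -0.049 to 0.059 for Pigr, -0.29 to 0.065 for Reg3g and -0.14 to 0.10 for Reg4 over 50000 bp, and of -0.075 to 0.059 for Lypd8, -0.27 to 0.32 for Reg3a, -0.25 to 0.32 for Reg3b and -0.27 to 0.32 for Reg3g at promoters. The cause of these changes was not tested. Depth limits the weakest peaks most: thinned to the shallowest library, 32 of the 51 peaks and 5 promoters could be tested.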
